A study of Drosophila melanogaster with 2 samples.

Results

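The regions described here are chromatin immunoprecipitation (ChIP-seq) peaks whose summit lay on a core promoter, the short stretch of DNA around a transcription start site. They were chosen by position alone: the summit, the base of highest signal, had to lie within 100 bp of an annotated start site of a protein-coding gene. Start sites that faced another protein-coding start site head to head within 1000 bp were left out, because a summit between a divergent gene pair cannot be given to one gene. The rule found 197 peaks, 3.31% of the authors' list of reproducible peaks (95% Clopper-Pearson interval 2.87 to 3.80%), and left 5747 other peaks. Among the 9654 protein-coding genes with at least 1 start site facing no other, 197 genes (2.04%) had such a summit. This 2.04% is the background for every gene list below, and it is not adjusted for the number of start sites per gene. The rule did not settle every assignment. Of the 197 summits, 1 lay nearer to a facing start site than to its assigned one. Start sites of 2 or more genes lay within 100 bp of 2 of the summits.

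The libraries came from whole prepupae of Drosophila melanogaster, pooled male and female, with a labelled age of 24 day. The animals belonged to 1 transgenic line that stably expressed CG8216 (spab) with GFP fused to its C-terminus, and the tagged protein was precipitated with an anti-GFP antibody. There were 2 biological replicates, replicate 1 and replicate 2, and a single group, so no condition was compared. What drives the tagged gene is not given in the sources used here, and whole animals mix all cell types, so fewer cells with the protein bound and less binding per cell cannot be told apart.

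A core promoter is where RNA polymerase II and the general transcription factors assemble. In flies it can carry an initiator at the start site, a TATA box upstream or a downstream element, and promoters of housekeeping genes often carry instead the DNA replication-related element (DRE), bound by DREF, or the Ohler motifs. Ribosomal protein genes start within a pyrimidine-rich TCT motif, and GAGA repeats are bound by GAGA factor and by Pipsqueak. The words CAGTGCA and CAGTGTA were also searched, because they were common under the peaks of this experiment in an earlier look at the same data, and their frequency is therefore no independent evidence.

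The sequences below are from the RefSeq Release 6 genome, which has the dm6 coordinates of the peak lists, and are printed 5′ to 3′. The first set shows the strongest core promoter peaks that held CAGTGCA or CAGTGTA within 150 bp of the summit, with the word in capitals and printed along the word. They lie at chr3R:20914290-20914316 (plus strand) and chr3R:20914466-20914492 (minus strand) for hdly, chr3L:9420333-9420359 (plus) for Atat, chr3L:4240254-4240280 (plus) for Sqor, and chr3L:3952666-3952692 and chr3L:3952732-3952758 (both plus) for CG14984.
hdly, first word: ggaatatcatCAGTGCAaagtcgaaaa
hdly, other word: ctacatatacCAGTGTAtgcgttatat
Atat: tttatttttcCAGTGCAcaaccgttga
Sqor: aactttttgcCAGTGCAgccggtttga
CG14984, first word: aaatactttgCAGTGTAtccgcttgca
CG14984, other word: ccttttctcgCAGTGCAcgcgaatgat

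CAGTG, then C or T, then A is all that the sites share by construction, and the places of the sites differ. In hdly the centre of CAGTGCA lay 7 bp downstream of the start site. In Sqor, which encodes a sulfide:quinone oxidoreductase, it lay 94 bp downstream, whereas in Atat, which encodes the alpha-tubulin N-acetyltransferase, it lay 169 bp upstream.

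The 2 strongest core promoter peaks held neither word. The promoters of the 2 strongest, CG14100 (chr3L:19590514-19590634, minus strand) and CG32772 (chrX:4908992-4909112, plus strand), are printed along the gene, with the annotated start base in capitals. The CG32772 summit lay 74 bp downstream of the start site, past the end of the printed stretch.
CG14100: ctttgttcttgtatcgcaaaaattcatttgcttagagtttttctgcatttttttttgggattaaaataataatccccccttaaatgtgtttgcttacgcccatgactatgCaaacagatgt
CG32772: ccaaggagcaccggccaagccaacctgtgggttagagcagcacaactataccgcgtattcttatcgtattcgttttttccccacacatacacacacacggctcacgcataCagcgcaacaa

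Promoters with a GAGAGAG word are shown because that word was the commonest of those searched around these summits. Shown are 3 of the strongest with the word in the printed window: sqz (chr3R:19164101-19164221, plus strand), mgl (chrX:9496179-9496299, minus strand) and CG42240 (chrX:6330732-6330852, plus strand). Capitals mark GAGAGAG, read as CTCTCTC where it lay on the other strand, and the annotated start base. The summits of sqz and mgl, 61 and 64 bp downstream of the start site, lay past the end of the printed stretches.
sqz: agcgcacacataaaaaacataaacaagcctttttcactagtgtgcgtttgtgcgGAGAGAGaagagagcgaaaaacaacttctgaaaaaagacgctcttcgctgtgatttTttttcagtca
mgl: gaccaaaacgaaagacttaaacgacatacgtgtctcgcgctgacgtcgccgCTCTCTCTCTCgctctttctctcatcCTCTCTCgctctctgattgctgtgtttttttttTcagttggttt
CG42240: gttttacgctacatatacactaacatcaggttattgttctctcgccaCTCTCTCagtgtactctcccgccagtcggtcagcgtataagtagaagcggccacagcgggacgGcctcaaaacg

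Some of the 9 ribosomal protein genes among these peaks had a TCT start, at 4 of them, or a DRE, at 3. RpL24, printed below, had neither. RpS4 (chr3L:13041741-13041821, plus strand) and RpL24 (chr2L:13395111-13395191, minus strand) had the strongest ribosomal summits, and capitals mark the annotated start base and, in RpS4, the TCT motif. RpS10b (chrX:19597930-19598050, plus strand), RpS7 (chr3R:30208932-30209052, minus strand) and Orp8 (chr3R:20309234-20309354, plus strand), which encodes an oxysterol-binding protein relative, were the 3 strongest with a DRE between 100 bp upstream and 50 bp downstream of the start site, and capitals mark TATCGATA and the start base. At Orp8 the summit lay 94 bp downstream of the start site, past the end of the printed stretch, and TATCGATA was not within 150 bp of it.
RpS4: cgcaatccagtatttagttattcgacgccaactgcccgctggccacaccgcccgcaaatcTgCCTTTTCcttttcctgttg
RpL24: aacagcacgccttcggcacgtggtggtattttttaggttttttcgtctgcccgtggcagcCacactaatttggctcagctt
RpS10b: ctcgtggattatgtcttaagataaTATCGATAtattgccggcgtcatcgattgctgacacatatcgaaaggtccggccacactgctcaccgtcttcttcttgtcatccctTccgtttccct
RpS7: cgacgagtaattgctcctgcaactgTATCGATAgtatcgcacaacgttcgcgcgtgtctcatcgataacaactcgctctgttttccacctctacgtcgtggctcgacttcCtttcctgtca
Orp8: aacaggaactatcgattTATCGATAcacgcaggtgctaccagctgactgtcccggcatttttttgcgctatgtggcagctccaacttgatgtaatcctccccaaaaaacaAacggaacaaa

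Coming from the upstream side, summits thinned out towards the start site. Of the 197 summits, 124 (62.9%, 55.8 to 69.7%) lay upstream, 72 lay downstream, and 1, at the glutathione S-transferase gene GstT1, fell on the annotated base itself. The median position was 23 bp upstream, with quartiles 66 bp upstream and 35 bp downstream. The median distance in either direction was 57 bp, 45 summits lay within 25 bp and 110 lay more than 50 bp away. Of the reproducible summits nearest to these start sites, 263 lay in the 100 bp just upstream of the window, against 124 in its upstream side, 73 in its downstream side including the start base, and 51 in the 100 bp beyond. The upstream count is therefore the falling edge of a broader upstream maximum, and the rule cuts through it.

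**Figure D1:**
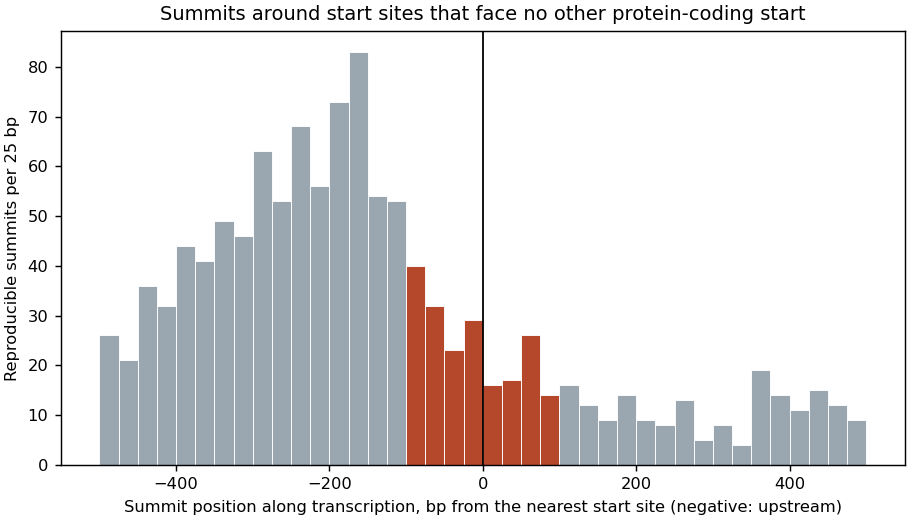
Reproducible summits per 25 bp (vertical axis) by position along transcription from the nearest start site that faces no other protein-coding start (horizontal axis, bp, negative upstream). Coloured bars mark the window of the rule, where the 197 summits sit between the upstream maximum and the low downstream level.

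At the edge of the window, the 21 summits 91 to 100 bp from a start site had a median signal of 283, and the 25 summits in the next 10 bp outside had a median of 259. The labels give fragments of 200 to 800 bp. The replicate summits of the same peak lay a median of 16 bp apart in these peaks and 18 bp apart in the other reproducible peaks. Of the 177 peaks found in both replicates, 156 had both replicate summits within 100 bp of the same start site, and 153 had both on the same side of it as the pooled summit.

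Peaks on core promoters had a lower median signal than the rest of the list, within the window and list used. Signal is the authors' pooled value per peak in the caller's units, and its median was 243 (quartiles 179.9 and 394, range 151 to 3747) against 280.1 (196 to 474) in the other reproducible peaks. The ratio of the medians was 0.866, and it was 0.837 in replicate 1 and 0.891 in replicate 2. It was 1.04 with a window of 200 bp and 0.997 in the stronger 50% of the list, so the lower median did not hold there. The weakest 20% of the list held 54 of the 197 and the strongest 20% held 33. Summits on the upstream side of the start site had a median of 229 and those on the downstream side 269. Farther upstream, beyond 100 and up to 500 bp, the 797 peaks had a median of 346, and the 138 peaks within 100 bp of a facing start had 317. The medians were nearer to 243 in the 177 peaks as far downstream, at 272, and in the 4440 peaks over 500 bp from a protein-coding start, at 269. No test was made of these differences, since peaks of the same libraries are not replicates.

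**Figure D2:**
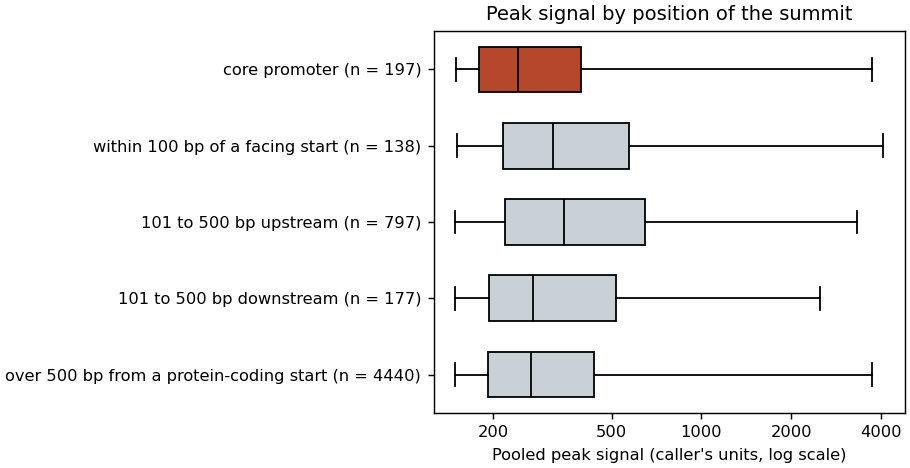
Pooled peak signal (horizontal axis, caller's units, log scale) by summit position, with the line at the median, the box at the quartiles and the whiskers at the lowest and highest peak; peaks near facing starts only are left out beyond 100 bp. The core promoter box, with its median at 243, sits lowest, and its highest peak reaches 3747.

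Signal was at much the same level across most of the window. The median was 233 for the 45 summits within 25 bp of the start site, 237 for the 42 at 26 to 50 bp, 233 for the 56 at 51 to 75 bp and 285 for the 54 at 76 to 100 bp. The outermost group had the widest upper side, with an upper quartile of 565 against 323 to 363 in the other groups, and it held 13 of the 28 core promoter peaks among the 1000 strongest of the list.

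The strongest core promoter peak was at CG14100, where the summit lay 97 bp upstream of the start site. Its signal was 1972 in replicate 1 and 1774 in replicate 2, and 3747 pooled. The next, at CG32772, had 1013 and 905 with the summit 74 bp downstream. CG14100 was the strongest in both replicates.

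The next described are genes with known roles in signalling or transcription. The summit at puc, the phosphatase that limits JNK signalling, lay 35 bp upstream and had 737 in replicate 1 and 940.4 in replicate 2. At psq, which encodes the GAGA-binding protein Pipsqueak, it lay 83 bp downstream and had 743 and 859.5. Eip93F, the ecdysone-induced factor that directs adult development, had 464 and 459 with the summit 96 bp upstream. The zinc finger genes chn and jing had 365 and 487, and 301 and 501, with summits 50 bp upstream and 90 bp downstream. At jing the replicates lay farther apart than at chn or Eip93F.

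Of the other genes among the 20, Hpf1, which directs ADP-ribosylation to serine, had 678 in replicate 1 and 792 in replicate 2, with the summit 99 bp upstream. MFS18, a transporter of the major facilitator family, had 565 and 880.4 at 78 bp upstream, and GstE13, a glutathione S-transferase, had 664 and 699 at 89 bp downstream. TRAM, a component of the protein translocation site of the endoplasmic reticulum, had 596 and 565 at 89 bp upstream. Acadvl, the very long-chain acyl-CoA dehydrogenase, had 395 and 408 at 65 bp downstream, and this was the only one of the 197 summits that the annotation placed in coding sequence.

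At the other 8 genes the replicates also had signals of the same order. The signals were 668 in replicate 1 and 704 in replicate 2 at mtgo, a fibronectin type III domain gene, 86 bp upstream. They were 587 and 753 at hdly, 38 bp downstream, and 424 and 502 at Sobp, 20 bp upstream. Atat had 385 and 535, Gbs-76A, a glycogen-targeting subunit of protein phosphatase 1, had 392 and 462, and CG9399 had 364 and 441. Eogt, which adds N-acetylglucosamine to extracellular EGF repeats, had 392 and 360.5, and Ptpmeg2, a tyrosine phosphatase, had 350.1 and 386. Of the 20, 13 summits lay upstream and 7 downstream, and 15 had the lower signal in replicate 1.

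**Figure D3:**
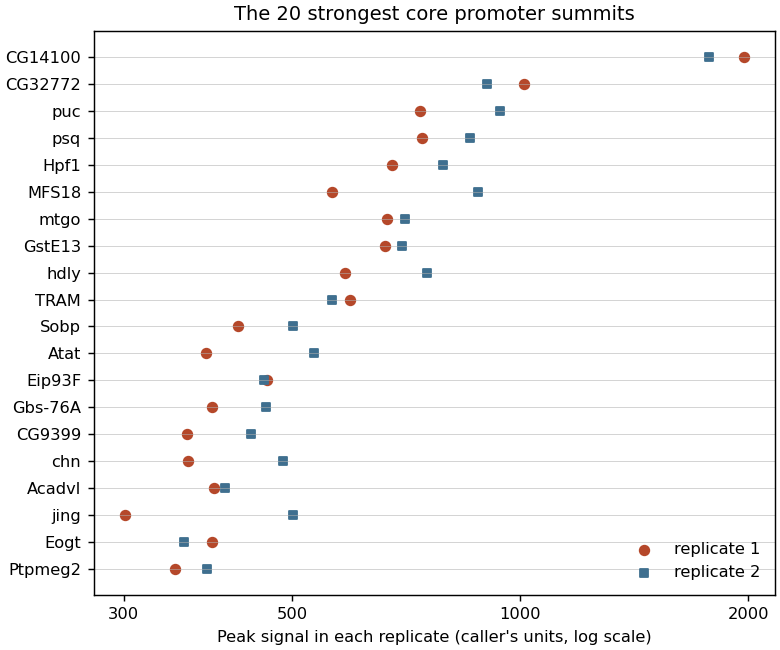
Peak signal in replicate 1 (circles) and replicate 2 (squares) for the 20 strongest core promoter summits (horizontal axis, caller's units, log scale; rows are genes in order of pooled signal). CG14100 stands apart in both replicates, at 1972 and 1774, and replicate 2 is the higher in 15 of the 20.

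Most of the peaks were found in both replicates, though a lower share than in the rest of the list. A summit within 100 bp was present in both replicate lists for 177 of the 197 peaks (89.8%, 84.8 to 93.7%), against 94.7% (94.1 to 95.3%) of the other peaks and 94.6% of all. The share was 92.6% of the 797 peaks more than 100 and up to 500 bp upstream, inside the interval of the 197. It was also below 94.7% in the peaks as far downstream and in those near a facing start. Over 500 bp from a protein-coding start it was 95.5%. The lower share was therefore not particular to core promoter peaks. Replicate 1 matched 179 of the 197 and replicate 2 matched 195. The reproducible list derives from these same replicates, so a match is partly built in, and none of the 197 was without a match in either.

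Among the peaks matched in both, replicate 1 had the lower signal in 132 of 177. On the log2 scale, replicate 1 over replicate 2 was -0.24 at the median (SD 0.54, n = 177 peaks) against -0.16 (SD 0.43, n = 5444) in the other matched peaks. The signal was not scaled for read number here, and whether the caller scaled it is not given. The read depth of the libraries is unknown, so the sign of this ratio can follow depth, which was not tested. The ratio exceeded 1 in size in 15 of 177 (8.47%, 4.82 to 13.6%), against 4.43% of the others.

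The 5 widest ratios were at peaks with pooled signals of 162 to 276. GstT4, a glutathione S-transferase, had 30.5 in replicate 1 and 184 in replicate 2, a log2 ratio of -2.59. At lawc the signals were 24.5 and 131, and at CG32425 they were 25.9 and 125. Psc, a Polycomb group gene, went the other way, with 112 and 34.9, a log2 ratio of 1.68. At dnr1, a negative regulator of the immune deficiency pathway, the signal was 73.5 in replicate 1 and the log2 ratio was -1.48.

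**Figure D4:**
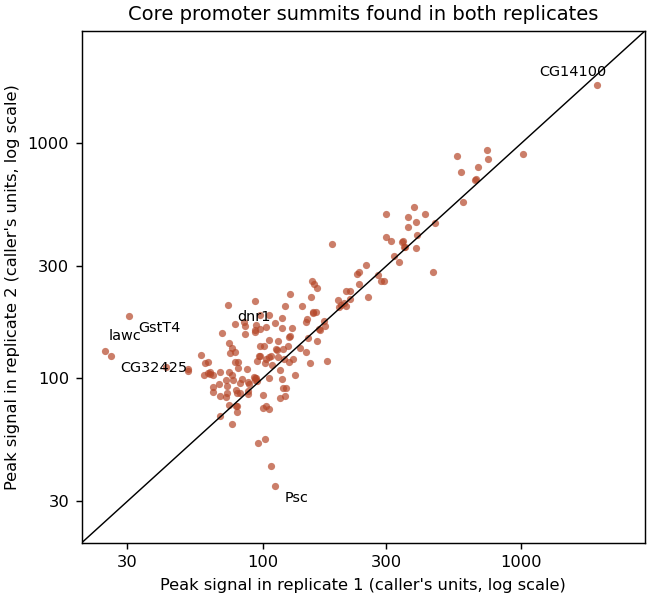
Peak signal in replicate 1 (horizontal axis) and replicate 2 (vertical axis), both in the caller's units on log scales, for the 177 core promoter peaks matched in both, with the line of equality. Of the 177 points, 132 lie above the line, CG14100 is the highest in both, and the 5 peaks with the widest ratios are named.

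A lower share of core promoter summits than of the rest had a CAGTG word. CAGTGCA or CAGTGTA, on either strand within 150 bp, occurred at 19 of the 197 (9.64%, 5.91 to 14.7%), against 25.1% (24.0 to 26.3%) of the other summits, 24.6% of all reproducible summits and 7.16% of the 13216 start sites that face no other. The share was 19.7% of the 797 summits more than 100 and up to 500 bp upstream and 15.8% of those as far downstream. It was 11.6% (6.77 to 18.1%) within 100 bp of a facing start and 27.3% over 500 bp from a protein-coding start. A lower share was thus also found at other summits near start sites. CAGTGCA alone occurred at 14 of the 197 and CAGTGTA at 7. Either word was in 12 of the stronger 98 core promoter peaks and in 7 of the weaker 99. The word CACTGAG occurred at 5.08%, against 576 of the 5747 other summits (9.26 to 10.8%) and 3.52% of the start sites.

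Where the words were present, their side of the summit was uncertain. Of 21 matches in the 197 windows, 13 lay downstream of the summit when read along the word (61.9%, 38.4 to 81.9%), against 1397 of 1726 (80.9%, 79.0 to 82.8%) around the other summits, a value inside the first interval. Of the 21, 14 had the same strand as the gene and 13 lay upstream of the start site. At Eip74EF, an ETS-domain factor induced by ecdysone, CAGTGCA lay 26 bp upstream of the start site and 12 bp from the summit.

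GAGAGAG was the commonest of the words. It occurred within 150 bp of 48 of the 197 summits (24.4%, 18.5 to 31.0%), against 8.37% (7.67 to 9.12%) of the other summits and 8.08% of start sites. Shares above the start-site level were also found in the peaks beyond 100 and up to 500 bp from a start, at 16.8% upstream and 15.8% downstream, but it was 2.90% of the peaks within 100 bp of a facing start. The word was in 19 of the stronger 98 core promoter peaks and in 29 of the weaker 99. Of the 20 strongest, puc, psq, TRAM and Ptpmeg2 held it. In CG42240, printed above, CTCTCTC runs into CAGTGTA and shares its last C with it.

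**Figure D5:**
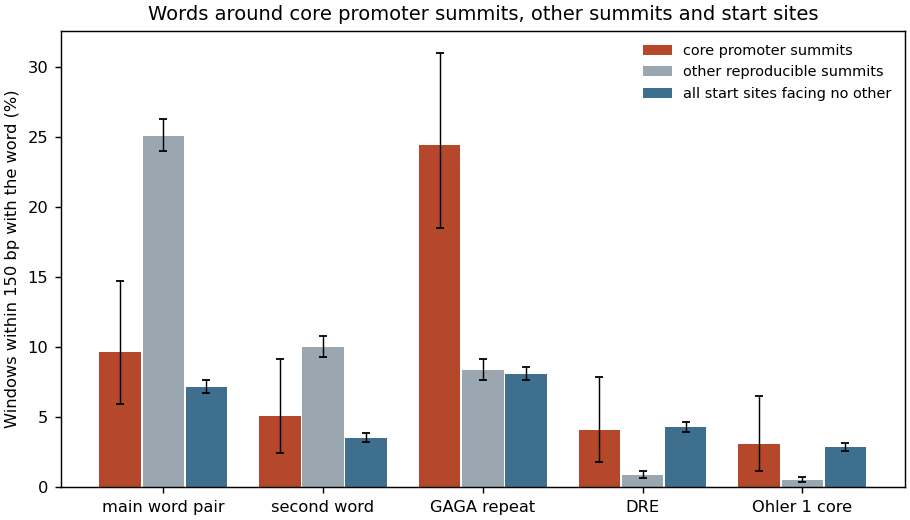
Share of windows within 150 bp with each word (vertical axis, %) around core promoter summits, the other reproducible summits and all start sites that face no other; error bars are 95% Clopper-Pearson intervals, the main word pair is CAGTGCA or CAGTGTA, and the second word is CACTGAG. The interval of the core promoter summits includes the start-site level for all but the GAGA repeat, at 24.4% against 8.08%.

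Elements of housekeeping promoters occurred at about the level of all start sites. TATCGATA was within 150 bp of 8 of the 197 summits (4.06%) and of 4.28% of start sites, against 0.887% of the other summits. GGTCACACT, the core of Ohler 1, was at 3.05%, 2.88% and 0.505% in the same order. The E-box CACGTG occurred at 4.06%, 3.82% and 2.59%. The other summits were not alike: the 138 within 100 bp of a facing start had TATCGATA at 13.8% (8.50 to 20.7%) and GGTCACACT at 6.52%. Beyond 100 and up to 500 bp from a start, TATCGATA was at 0.627% upstream and 0.565% downstream. Each interval of the core promoter summits included the start-site value.

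Searched at the start site itself, the TATA box stood below its background. TATAAA, with its first base 20 to 40 bp upstream, was present at 5 of the 197 start sites (2.54%, 0.829 to 5.82%), at MFS18, Ufsp1, scyl, CG6055 and emc, against 7.88% of all start sites facing no other. With the most upstream start site of each gene only, TATAAA was at 5 of 117 (4.27%) against 9.29%, a small count. GAGAGAG, between 100 bp upstream and 50 bp downstream, was present at 15.7% (10.9 to 21.6%) against 4.79%. The initiator TCAGT was at 16.2% against 13.4%, but with the most upstream start site of each gene only it was at 11.1% against 12.5%. The downstream element, GGACG or AGACG, was at 7.11% (3.94 to 11.6%) against 4.38%. The TCT start, CTTT with C or T before it and at both next positions, was at 5 start sites (2.54%) against 0.893%, and 4 of the 5 belonged to ribosomal protein genes. DRE, Ohler 1, Ohler 6 and Ohler 7 were at 3.55%, 3.05%, 0.508% and 3.05%, against 3.67%, 2.56%, 0.802% and 3.72%. With the most upstream start sites only, Ohler 7 turned to 4.27% against 4.01%.

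The DNA under these summits was richer in G and C than under the others. The median GC content within 50 bp of the summit was 43.6%, against 32.7% at the other summits. Among these others it was 38.6% at summits beyond 100 and up to 500 bp downstream of a start. It was 31.7% as far upstream and 33.7% within 100 bp of a facing start. At the start sites of the core promoter peaks the median was 46.5%, close to the 44.6% of all start sites facing no other.

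Ribosomal protein genes stood at the head of the gene lists by number. Of 42 cytoplasmic ribosomal protein genes with a start site facing no other, 9 (21.4%, 10.3 to 36.8%) had a core promoter summit, beside the 2.04% over all genes. Their pooled signals ran from 159 to 455 with a median of 276, so none was among the 20 strongest. The pooled summit sat close to the start: 8 of the 9 lay within 25 bp, and the median distance was 12.0 bp. These were 8 of the 45 core promoter summits that close. RpS4 had no matching summit in replicate 1 and 257 in replicate 2. Its pooled summit lay 5 bp downstream, but its replicate 2 summit lay 31 bp downstream. RpL24 had 162 and 242 at 12 bp downstream, and RpS10b had 156 and 189 at 9 bp downstream. The others were RpS23, RpS7, RpL30, RpL27, RpL22 and RpS14b. Of these, RpL22 was the only one with a pooled summit more than 25 bp away, at 58 bp upstream. The replicate 1 summit of RpL27 lay 33 bp upstream. A TCT start was found at RpS4, RpS7, RpL30 and RpL27, and a DRE at RpS10b, RpS7 and RpL27.

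Counts for other genes of protein synthesis were too small to set apart from the 2.04% over all genes. The list of translation factors had 1 of 33 (3.03%, 0.0767 to 15.8%), at eEF1alpha1, which delivers aminoacyl-tRNA to the ribosome, with 106 in replicate 1 and a log2 ratio to replicate 2 of 0.08. With the strongest peaks of replicate 2 alone, the list had 3. Neither the 16 mitochondrial ribosomal protein genes nor the 10 aminoacyl-tRNA synthetase genes had any, which allows shares of up to 20.6% and 30.8%.

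Genes of the ecdysone response had 5 of 26 (19.2%, 6.55 to 39.4%). Ecdysone is the steroid hormone whose pulses drive metamorphosis, and the prepupal period lies between such pulses. Beside Eip93F, the nuclear receptor gene Eip75B had 313 in replicate 1 and 386 in replicate 2, 67 bp downstream, and the nuclear receptor gene Hr78 had 236 and 283, 39 bp downstream. Eip74EF and the cyclin-dependent kinase gene Eip63E were weaker, at 78.2 and 171 and at 61.7 and 105. Replicate 1 was the higher at Eip93F alone of the 5. With the strongest peaks of replicate 1 alone, without replicate 2, the list had 3 genes.

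Chromatin and insulator proteins had 3 of 13 (23.1%, 5.04 to 53.8%). Beside psq these were BEAF-32, which binds domain boundaries, and Psc. BEAF-32 had a pair of summits at different start sites, 20 bp upstream with 106 and 123, and 56 bp upstream with no match in replicate 1 and 50.8 in replicate 2. The counts of 9, 5 and 3 genes are small, and their intervals overlap widely.

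The lists of the general transcription machinery and the secretory pathway had 1 gene each in the reproducible list, and without replicate 1 the first had 2. These were MED6, a subunit of Mediator, of 34 genes, with 93.5 in replicate 1 and 100.1 in replicate 2, and TRAM of 16. No gene had a core promoter summit among 26 proteasome, 5 spliceosome, 23 heat shock and chaperone, 20 Rab GTPase, 7 autophagy, 24 muscle and 21 neuronal genes, nor among 110 cuticle and 154 chemoreceptor genes. For the largest of these lists a count of 0 allows a share of up to 3.30% of cuticle genes and 2.37% of chemoreceptor genes (upper 95% Clopper-Pearson bounds), so neither is shown to lie below 2.04%.

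Genes with several start sites made up most of the set. Of the 197 genes with a summit, 136 (69.0%, 62.1 to 75.4%) had more than 1 annotated start site, against 29.7% of all eligible genes, but a gene with more start sites has more windows that can hold a summit. Each called gene of the ecdysone response and of the chromatin and insulator list had more than 1. So had the called ribosomal protein genes except RpL27 and RpL22. The 2.04% set beside the gene lists was not adjusted for this. Among the peaks at genes with several start sites, 51 of 136 (37.5%, 29.4 to 46.2%) lay at the most upstream one, close to the 33.8% such sites make up of all start sites in these genes. Of the 197 summits, 89 had another reproducible summit inside the same gene, and 29 (14.7%) had one within 500 bp, against 16.3% of the other peaks. The gene drn, like BEAF-32, had a pair of core promoter summits.

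By the outer annotated extent of the genes, which can begin at a start site farther upstream than the nearest one, 116 summits lay in non-coding sequence of the gene itself, 59 between genes, 13 in another gene as well, 8 in another gene only and 1 in coding sequence. For the 13 and the 8 inside another gene the signal cannot be assigned to one gene by position. By chromosome, X held 15.2% of the summits and 17.4% of the eligible start sites, 2L held 19.3% and 18.5%, 3L held 20.8% and 19.4%, and 3R held 22.3% and 23.2%. On the fourth chromosome there were none, where 114 eligible start sites lie.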

How the data were processed

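ChIP-seq of the GFP-tagged protein was done on 2 biological replicates. The authors deposited peak lists; per the notes deposited with them, each replicate list was called against a control, and the reproducible list (IDR, irreproducible discovery rate) derives from both replicates and their pool. No source used here gives the aligner, the caller, their versions or the IDR threshold. The authors' deposited signal per peak, in units of the caller, was not scaled for read number here, and whether the caller scaled it is not given. The lists carry no read counts, so depth is unknown. Summit offsets were deposited by the authors as another column of each list. The dm3 lists were not used.

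Start sites came from Ensembl release 115 (BDGP6.54, dm6 coordinates), sequences from RefSeq Release 6. Summits were assigned to the nearest eligible start site, and replicate summits were matched within 100 bp. Words were searched on both strands within 150 bp of a summit. A summit needed no minimum signal. Shares have exact Clopper-Pearson 95% intervals over peaks or genes, which cover counting error only. With 1 group no test across samples was made. Python 3.11.15, NumPy 2.4.6, pandas 2.3.3 and SciPy 1.17.1 were used, and the assignment, matching and word search were tested on simulated data.

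The members and the 17 gene lists were chosen with earlier results of these data known, and 6 listed symbols had no match. Named genes are those at the 20 strongest summits, up to 3 strongest per list and the 5 widest replicate ratios; the genes with a TATA box, those listed for ribosomal proteins beyond 3, Eip74EF, Eip63E, GstT1, drn and those shown for GAGAGAG or a DRE were chosen after their values were seen. The alternatives tried changed the list, the window, the start sites used, the matching distance and the word window.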

Additional observations from a re-analysis of the deposited data

How the results depend on the processing

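Peaks of the stronger part of the list (its upper 50%), other windows and other sets of start sites changed the counts most. The number of core promoter summits was 75 in the stronger part, 87 within 50 bp, 511 within 200 bp, 117 with the most upstream start site of each gene only and 335 with no start site left out. The number of genes was 75, 87, 497, 119 and 347 in the same order. The upstream share became 53.3% in the stronger part and 75.7% within 200 bp. The ratio of median signals was 0.997 in the stronger part, 1.04 within 200 bp and 0.948 with no start site left out, so it was near or above 1 in the first 2 of these. With as many of the strongest peaks of either replicate alone in place of the reproducible list, the ratio ran from 0.825 to 0.853, the summits from 189 to 230, the genes from 189 to 230, the upstream share from 58.7 to 63.5% and the share with CAGTGCA or CAGTGTA from 8.99 to 10.4%. Of the 197 genes, 163 were also called without replicate 1 and 149 without replicate 2. The share matched in both replicates was 78.2% with summits within 50 bp and 94.4% within 200 bp. The share with CAGTGCA or CAGTGTA stayed between 7.11 and 13.5% under the alternatives run. Ribosomal protein genes with a summit numbered 11 without replicate 1, 9 without replicate 2 and 4 in the stronger part. Ecdysone response genes numbered 4, 3 and 3, and chromatin and insulator genes 2, 3 and 1. The causes were not tested. No paired analysis was possible because there is a single group. Unknown depth and small lists limit these values.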
